A study of Homo sapiens with 8 samples.

Results

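Expression of 10 genes that build the urea cycle or handle glutamine was followed in HepG2, a human hepatic cell line, after inhibition of EZH1 and EZH2. The genes were taken by name (NAGS, CPS1, OTC, ASS1, ASL, ARG1, ARG2, SLC25A15, GLUL and GLS2), and all 10 were found among the 25603 genes of the deposited table. Cells were exposed for 4 days to a combination of 2 inhibitors, UNC1999 and valemetostat tosylate, at 1 µM for each compound (EZHi, titled DI in the labels), or to vehicle, which was 0.2% DMSO by the labels, while the study's methods also give a lower concentration. Both groups grew on gelatin in William's E medium that held insulin and dexamethasone, a glucocorticoid, and no gene was altered for the experiment. Each group had 4 libraries, which the study describes as biological replicates of this 1 cell line, and replicate numbers 1 to 4 occur in both groups.

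Polycomb repressive complex 2 uses EZH1 or EZH2 to methylate histone H3 at K27, a mark of silenced genes. The urea cycle turns toxic ammonia into urea in hepatocytes. NAGS makes N-acetylglutamate, which CPS1 needs to fix ammonia as carbamoyl phosphate inside mitochondria. OTC joins this to ornithine to give citrulline, which leaves the mitochondrion in exchange for ornithine through the carrier SLC25A15. In the cytosol, ASS1 couples citrulline to aspartate, ASL splits the product into arginine and fumarate, and ARG1 releases urea and returns ornithine, while ARG2 is the mitochondrial arginase found in many tissues. In the liver lobule the cycle works around the portal vein, where GLS2, the liver-type glutaminase, frees ammonia from glutamine, and GLUL (glutamine synthetase) captures the remaining ammonia around the central vein.

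Transcript levels are given as the deposited values, which are on a log2 scale and corrected for transcript length, or as an estimated FPKM derived from them. A mean estimated FPKM of 0.1 was required for a test with limma, and a gene is described as called when its p, adjusted over the 20153 genes tested, was under 0.05. OTC lay under this limit, so that 9 of the 10 genes were tested. Correlations across genes between libraries ranged from 0.996 to 0.999 within groups (12 pairs) and from 0.992 to 0.996 between groups (16 pairs), and libraries of equal number deviated together, so a fit with the replicate number as a block is given where it changes a call. The transcripts of EZH1 and EZH2, whose products were inhibited, had log2 fold changes of -0.07 and -0.06 (limma adjusted p 0.573 and 0.806), with the sign turning when libraries were centred on well-expressed genes. The p-values measure the spread between these libraries of 1 line, which the normalization shrinks for genes with few reads.

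Markers of cell types were examined first. All 9 hepatocyte markers were present, with summed estimated FPKM of 12334 to 29210 in vehicle and 13367 to 25900 in EZHi libraries, and only FGB among them was called (log2 fold change 0.92, limma adjusted p 0.00167). With the replicate block, 3 of the 9 were called higher and 1 lower. The hepatoma markers AFP and GPC3 summed to between 13057 and 20678 in vehicle and between 14537 and 19685 in EZHi, with no call, while 1 of these 2 was called lower with the block. Of 6 cholangiocyte markers, 5 were in the table (CFTR had no row), none was called, and their sums were 720 to 1126 and 907 to 1231. With the block, 2 of these 5 were called higher, where 14.9% of all genes tested were called higher and 15.1% lower. Fibroblast markers were at 12.2 to 15.0 and 14.7 to 17.2 (2 of 4 in the table, COL1A2 and DCN without a row). The sum of 3 endothelial markers was 2.26 to 2.72 in vehicle and 3.42 to 7.21 in EZHi libraries, with VWF and CDH5 called higher by 1.45 and 2.28 on the log2 scale (limma adjusted p 0.00537 and 0.00411). These rises start from low values, so their size depends on any constant added before the log, and none was added. Only 1 of 3 leukocyte markers (CD3E) was in the table, at no more than 0.0731. The part of these markers in the results on urea cycle genes was not tested, and in bulk RNA fewer cells of a kind cannot be told apart from less RNA per cell.

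In order to show the sequence from which the genes with the clearest differences are transcribed, promoter windows of RefSeq (GRCh38.p14, 250 bases before to 50 after the start) were read for all 10 genes, which had 14 windows. The second of 2 windows of ASS1, which holds its annotated start, and the windows of ARG2 and, as the counterpart of ARG2, ARG1 are given 5′ to 3′ on the plus strand, with matches in capitals to the cAMP response element (TGACGTCA), the E-box (CACGTG), the GC box (GGGCGG), the CCAAT box (ATTGG) and the TATA box (TATAAA), each searched on both strands.
ASS1 chr9:130444711-130445010: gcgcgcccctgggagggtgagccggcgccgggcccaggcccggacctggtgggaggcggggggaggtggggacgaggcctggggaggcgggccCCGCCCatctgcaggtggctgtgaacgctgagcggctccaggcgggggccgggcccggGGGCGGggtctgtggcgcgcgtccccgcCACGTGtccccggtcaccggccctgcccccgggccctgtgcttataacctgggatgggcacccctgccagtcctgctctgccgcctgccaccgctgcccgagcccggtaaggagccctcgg
ARG2 chr14:67619670-67619969: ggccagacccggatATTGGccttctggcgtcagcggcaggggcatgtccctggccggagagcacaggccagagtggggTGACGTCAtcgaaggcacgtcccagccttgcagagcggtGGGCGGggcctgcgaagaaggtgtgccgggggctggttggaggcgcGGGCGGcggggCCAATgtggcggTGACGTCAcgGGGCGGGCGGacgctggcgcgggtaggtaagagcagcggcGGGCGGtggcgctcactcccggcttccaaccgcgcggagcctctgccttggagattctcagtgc
ARG1 chr6:131572976-131573275: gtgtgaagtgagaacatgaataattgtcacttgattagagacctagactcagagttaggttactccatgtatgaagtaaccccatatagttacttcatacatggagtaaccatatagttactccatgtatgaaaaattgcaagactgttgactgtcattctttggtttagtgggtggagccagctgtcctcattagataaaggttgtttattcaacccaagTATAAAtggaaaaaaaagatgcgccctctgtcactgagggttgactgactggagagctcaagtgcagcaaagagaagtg
The ARG2 window held 2 cAMP response elements and 5 GC boxes, of which 1 pair overlapped. Among 35116 windows of the same length over all genes, 1.85% held this element at least once and 0.0598% at least 2 times. The ASS1 window shown held 1 E-box, present in 7.26% of all windows, and 2 GC boxes, a number reached by 26.7%. The other ASS1 window had 2 GC boxes and no E-box. ARG1 had a TATA box, present in 11.5%, and none of the other motifs, while the CCAAT box occurred 2 times in ARG2, a number reached by 10.75% of all windows. CpG dinucleotides numbered 29 in this ASS1 window, 31 in ARG2 and 1 in ARG1, against a median of 14 over all windows (quartiles 4 and 28). The windows of CPS1 and OTC were also poor in CpG, with 1 to 3 and 3. Those of GLS2, NAGS, GLUL, ASL and SLC25A15 held 14, 15, 25 to 29, 30 and 45. Of the 14 windows, 1 held the cAMP response element, 2 the E-box, 9 the GC box, 4 the CCAAT box and 2 the TATA box. The search was not among the planned results, and the windows shown were chosen after the differences were seen. These matches describe the letters of the windows, and binding was not measured in these libraries.

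The level of each gene in HepG2 cells was then defined. In vehicle cells GLUL was highest, at 12.03 ± 0.33 (SD, n = 4), above 97.7% of all genes in the table when averaged over the 8 libraries. ASS1 followed at 11.14 ± 0.17 (SD, n = 4), then CPS1 at 9.55 ± 0.10, SLC25A15 at 9.50 ± 0.14 and ASL at 9.38 ± 0.11 (SD, n = 4 each). The libraries of these last 3 genes overlapped in level. ARG2 came next at 8.34 ± 0.14, followed by NAGS at 7.72 ± 0.10 and by ARG1 at 6.55 ± 0.81 (SD, n = 4 each), with no overlap between neighbours. GLS2 was near the lower end of the genes tested, at 2.53 ± 0.13 (SD, n = 4). It shares 82.8% of its exonic bases with other annotated genes, and reads on shared bases may go uncounted, so this level may be understated. OTC was at -0.31 ± 0.09 (SD, n = 4), which corresponds to about 0.910 normalized reads per library. In EZHi cells the order was the same, except that the libraries of ARG2 and NAGS now overlapped.

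**Figure D1:**
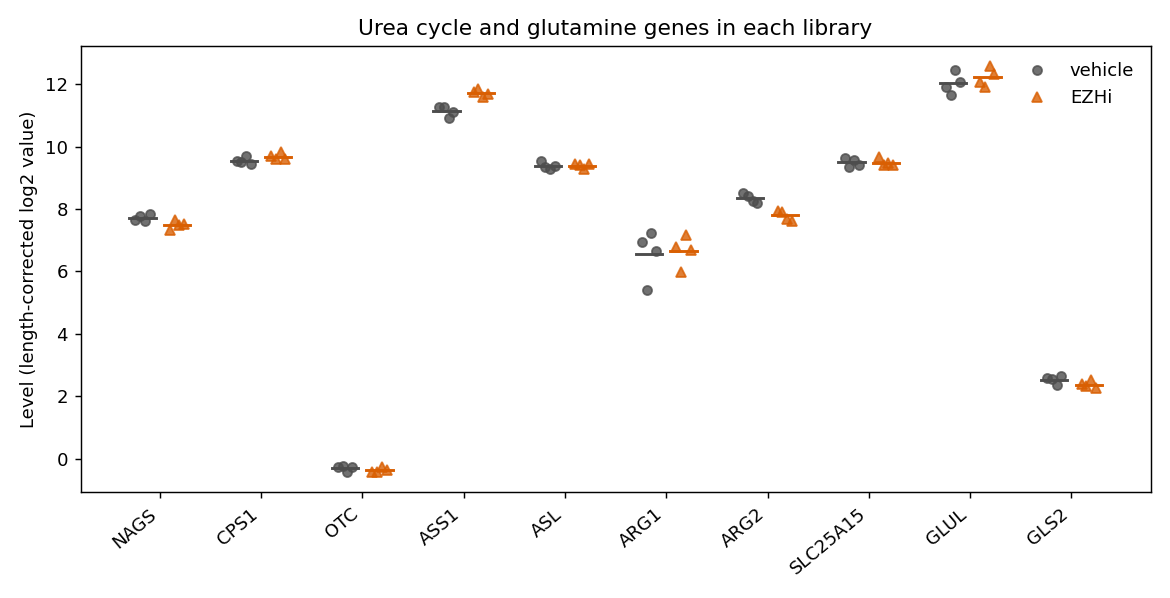
Length-corrected log2 value (vertical axis) of the 10 genes in each of 4 vehicle (grey circles) and 4 EZHi (orange triangles) libraries, with the group mean as a line. ASS1 lies higher and ARG2 lower in every EZHi library, OTC lies at the floor of the assay, and ARG1 has the widest spread.

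EZHi raised ASS1 and lowered ARG2. These were the 2 of 9 genes called, 1 in each direction, where 13.1% of all genes tested were called (8.85% higher and 4.27% lower). The same 2 genes were the ones whose groups did not overlap, against 18.6% of all genes tested (10.7% higher and 7.93% lower). All 4 pairs agreed in direction for 5 genes (3 higher and 2 lower), as they did for 44.8% of all genes tested (20.6% and 24.2%). No other step of the cycle was called, and the median log2 fold change of the 9 genes was 0.014, beside -0.0077 for all genes tested. With the replicate block, which removes differences shared by libraries of equal number, 5 of the 9 genes were called (CPS1, ASS1 and GLUL higher, ARG2 and NAGS lower), where 30.0% of all genes were called (14.9% higher and 15.1% lower).

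**Figure D2:**
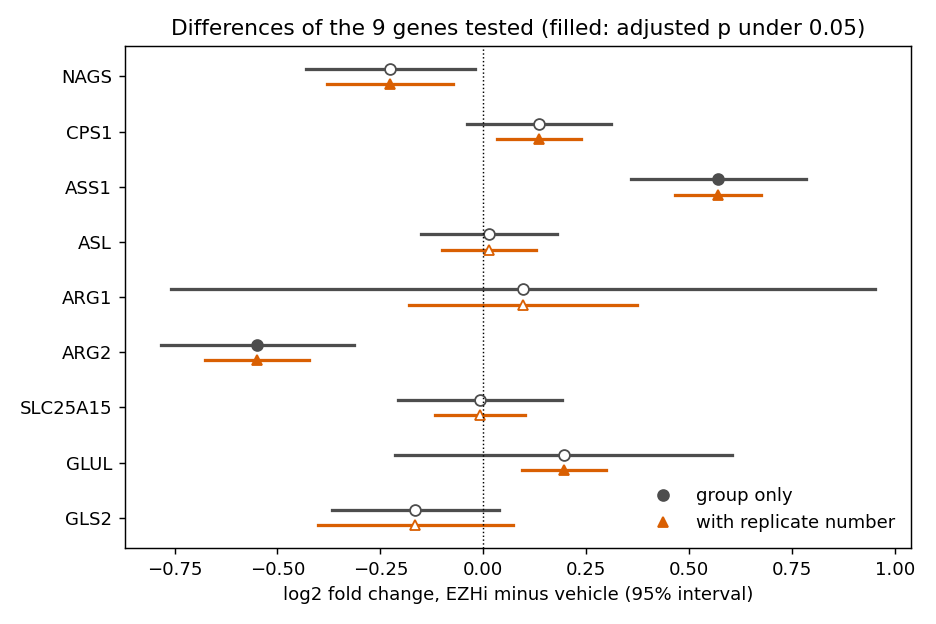
Log2 fold change of EZHi against vehicle (horizontal axis) with its 95% interval for the 9 genes tested, in the limma fit with group alone (grey circles) and with the replicate number as a block (orange triangles). Filled symbols mark an adjusted p under 0.05, which ASS1 and ARG2 reach in both fits and CPS1, GLUL and NAGS in the blocked fit.

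The entry of ammonia into the cycle was examined first. CPS1 (ENSG00000021826, GRCh38 chromosome 2, 210477682 to 210679107, plus strand), the rate-limiting enzyme, was at 9.53, 9.52, 9.69 and 9.45 in vehicle replicates 1 to 4 and at 9.69, 9.60, 9.84 and 9.60 in EZHi replicates 1 to 4. The groups overlapped, but the EZHi library was the higher one in 4 of 4 pairs, by 0.081 to 0.16. On the log2 scale the difference was 0.14 ± 0.08 (standard error) with a 95% interval of -0.04 to 0.31 (limma adjusted p 0.315). With the replicate block the adjusted p was 0.0494, just under the threshold. Combined with centring on well-expressed genes or with quantile normalization, the blocked fit gave adjusted p of 0.00467 and 0.0070. The upper end of the interval without pairs corresponds to 24.0% more CPS1 transcript. CAD, which carries the cytosolic carbamoyl phosphate synthetase of pyrimidine synthesis, had a log2 fold change of -0.11 (limma adjusted p 0.359), and the level of CPS1 minus that of CAD was -1.26 ± 0.17 without and -1.02 ± 0.10 with the inhibitors (SD, n = 4 each), and the groups overlapped.

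NAGS (ENSG00000161653, chromosome 17, 44004622 to 44009068, plus strand), which makes the activator of CPS1, was at 7.65, 7.78, 7.63 and 7.83 in vehicle and at 7.32, 7.64, 7.50 and 7.53 in EZHi replicates 1 to 4. It was lower in every pair, by 0.13 to 0.34, although EZHi replicate 2 lay above the lowest vehicle library. On the log2 scale the difference was -0.23 ± 0.09 (standard error; limma adjusted p 0.146), and with the replicate block the adjusted p was 0.0335. This call of the blocked fit was lost when libraries were also centred on well-expressed genes (adjusted p 0.181, log2 fold change -0.13). It was kept when the block was combined with quantile normalization (adjusted p 0.0188, log2 fold change -0.26).

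OTC (ENSG00000036473, chromosome X, 38352586 to 38421446, plus strand), the enzyme that makes citrulline, was listed between -0.43 and -0.22 in all 8 libraries. Its estimated FPKM was 0.0317 ± 0.0019 in vehicle and 0.0301 ± 0.0015 in EZHi (SD, n = 4 each), at or close to the floor of the table, where the values carry little information. No change could be detected at this level. SLC25A15 (ENSG00000102743, chromosome 13, 40789412 to 40812460, plus strand), the carrier that exchanges ornithine for citrulline, was at 9.65, 9.35, 9.58 and 9.40 in vehicle and at 9.65, 9.42, 9.48 and 9.40 in EZHi replicates 1 to 4. The groups coincided. The log2 fold change was -0.0079 within a 95% interval of -0.21 to 0.19 (limma adjusted p 0.973). Citrin, the aspartate and glutamate carrier encoded by SLC25A13 that provides aspartate for ASS1, had a log2 fold change of 0.0084 with an interval of -0.18 to 0.19 (limma adjusted p 0.968).

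ASS1 (ENSG00000130707, chromosome 9, 130444961 to 130501274, plus strand) was at 11.27, 11.28, 10.92 and 11.11 in vehicle replicates 1 to 4. In EZHi replicates 1 to 4 it was at 11.74, 11.86, 11.58 and 11.67, so that the lowest EZHi library exceeded the highest vehicle library. The rise was seen in 4 of 4 pairs, from 0.47 to 0.66, and amounted on the log2 scale to 0.57 ± 0.10 (standard error) with a 95% interval of 0.36 to 0.78 (limma adjusted p 0.00341). In estimated FPKM, ASS1 went from 88.8 ± 10.1 to 132 ± 10.8 (SD, n = 4 each), which is an increase of 48.5% on the fitted scale. The call held in each of the 8 fits that left out 1 library (log2 fold change 0.50 to 0.62) and with both other scalings (0.67 and 0.69). GENCODE lists 14 pseudogenes named after ASS1, of which 1, ASS1P2, had a row in the table. Reads that align equally well to several copies fall under the alignment quality the authors required, and the share of ASS1 reads lost in this way was not tested.

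ASL (ENSG00000126522, chromosome 7, 66075800 to 66094697, plus strand), which acts directly after ASS1, was at 9.53, 9.34, 9.28 and 9.37 in vehicle and at 9.43, 9.41, 9.28 and 9.45 in EZHi replicates 1 to 4. The groups overlapped throughout. Its log2 fold change was 0.014 with a 95% interval of -0.15 to 0.18 (limma adjusted p 0.936). Both genes lie on the same scale within a library, and the level of ASS1 minus that of ASL went from 1.76 ± 0.12 to 2.32 ± 0.10 (SD, n = 4 each), without overlap between groups. This pair was compared after the values were seen and is given without a test.

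ARG1 and ARG2, which encode the cytosolic and the mitochondrial arginase, were examined separately. ARG2 (ENSG00000081181, chromosome 14, 67619920 to 67651708, plus strand) was at 8.50, 8.42, 8.26 and 8.19 in vehicle and at 7.95, 7.92, 7.68 and 7.63 in EZHi replicates 1 to 4. Every EZHi library was below every vehicle library, and pairs differed by -0.58 to -0.50. On the log2 scale the difference was -0.55 ± 0.10 (standard error) with a 95% interval of -0.78 to -0.31 (limma adjusted p 0.00715). ARG2 thus went from 12.7 ± 1.25 to 8.71 ± 0.995 in estimated FPKM (SD, n = 4 each), and fell by 31.7% on the fitted scale. It was called in each of the 8 fits that left out 1 library (-0.60 to -0.49) and under both other scalings (-0.45 and -0.55). In the annotation, 39.6% of the exonic bases of ARG2 are shared with VTI1B on the opposite strand, and reads were counted in union mode without strand. Such a count leaves out reads that fall on both genes, so the level of ARG2, also beside ARG1, may be understated. The share of ARG2 reads lost was not tested. VTI1B itself had a log2 fold change of -0.03 (limma adjusted p 0.889).

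ARG1 (ENSG00000118520, chromosome 6, 131470832 to 131584332, plus strand), the arginase of the hepatic urea cycle, was at 6.94, 5.40, 7.24 and 6.64 in vehicle and at 6.79, 5.97, 7.16 and 6.69 in EZHi replicates 1 to 4. Replicate 2 was lowest in both groups. Pairs went in both directions, from -0.15 to 0.57, and the log2 fold change of 0.10 had a 95% interval of -0.76 to 0.95 (limma adjusted p 0.912), which spans from -40.9% to 93.5%. The replicate block narrowed this interval to -0.18 to 0.37 without a call (limma adjusted p 0.614). Without vehicle replicate 2 the value turned to -0.29, and without EZHi replicate 3 to -0.073. The level of ARG2 minus that of ARG1 was 1.56, 3.02, 1.02 and 1.55 in vehicle and 1.17, 1.95, 0.52 and 0.94 in EZHi replicates 1 to 4. ARG2 exceeded ARG1 per length in all 8 libraries, by less in the EZHi library of each pair, with overlap between groups.

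**Figure D3:**
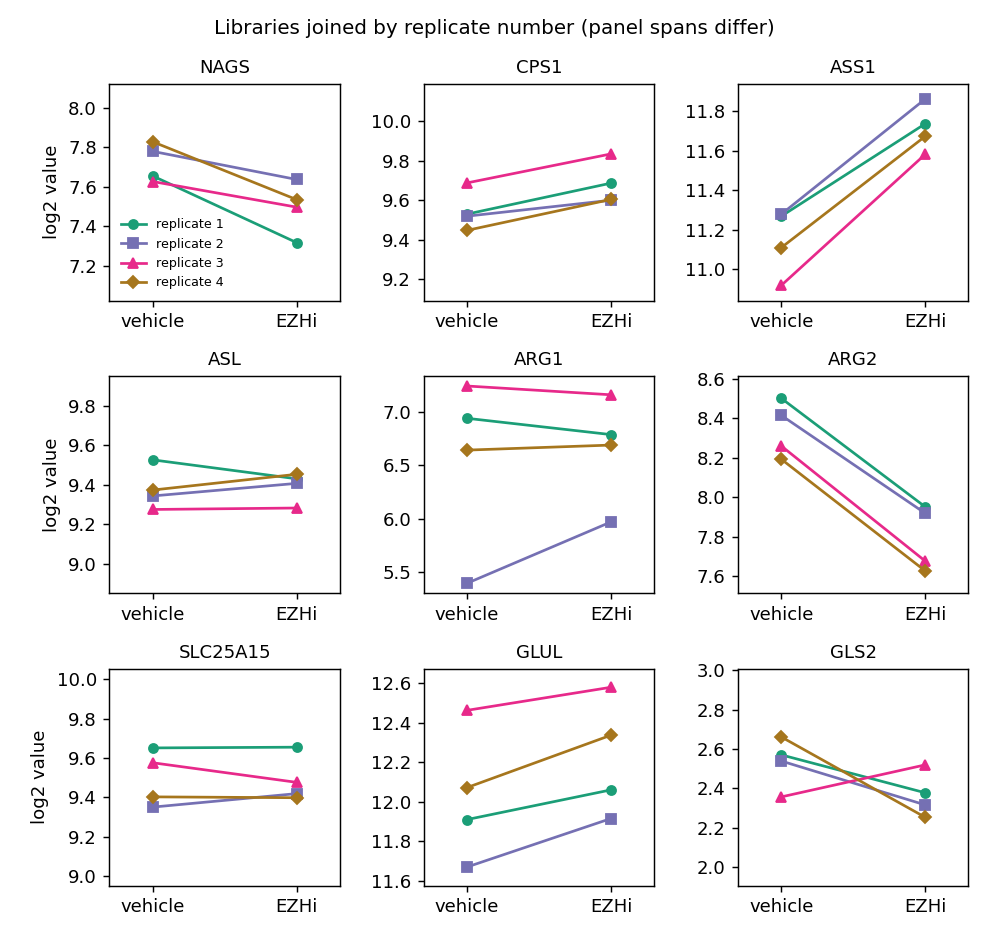
Log2 value of the 9 genes tested in vehicle and EZHi libraries, joined by replicate number (color and symbol); the panels span different ranges of the vertical axis. All 4 lines rise for ASS1, CPS1 and GLUL and fall for ARG2 and NAGS, while those of ARG1, ASL, SLC25A15 and GLS2 do not share a direction.

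Synthesis and breakdown of glutamine were compared next. GLUL (ENSG00000135821, chromosome 1, 182378098 to 182392206, minus strand) was at 11.91, 11.67, 12.46 and 12.07 in vehicle and at 12.06, 11.91, 12.58 and 12.34 in EZHi replicates 1 to 4. The spread between replicate numbers exceeded the difference between groups, replicate 3 being highest and replicate 2 lowest in both. On the log2 scale the difference was 0.19 ± 0.18 (standard error) with a 95% interval of -0.22 to 0.60 (limma adjusted p 0.558). The difference was 0.075 without vehicle replicate 2, 0.076 without EZHi replicate 3 and 0.34 without vehicle replicate 3. Within pairs GLUL was higher by 0.12 to 0.27 in 4 of 4 cases, and it was called with the replicate block (adjusted p 0.0111). That call was also made when the block was combined with centring (0.000701) or with quantile normalization (0.000865).

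GLS2 (ENSG00000135423, chromosome 12, 56470944 to 56488414, minus strand) was at 2.57, 2.54, 2.36 and 2.66 in vehicle and at 2.38, 2.32, 2.52 and 2.25 in EZHi replicates 1 to 4. Replicate 3 went against the other 3 pairs. The log2 fold change of -0.16 had a 95% interval of -0.37 to 0.04 (limma adjusted p 0.288), and it passed the threshold with quantile normalization (-0.33, adjusted p 0.0447). GLS2 is weakly measured, with about 8.07 normalized reads per library, and 82.8% of its exonic bases are shared with other annotated genes, among them SPRYD4 on the opposite strand. Counting in union mode without strand leaves out reads that fall on several genes, and the share of GLS2 reads lost was not tested. GLUD1 (glutamate dehydrogenase), which releases ammonia from glutamate, had a log2 fold change of -0.12 (limma adjusted p 0.694).

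Since the values of well-expressed genes were slightly lower as a class in EZHi libraries (median log2 fold change -0.095 over the 7809 genes whose mean estimated FPKM reached 10), differences of this size depend on how libraries are scaled. Centring the libraries on these genes added 0.095 to every fold change. It brought CPS1 to 0.23 (limma adjusted p 0.0947), GLUL to 0.29 (0.349) and NAGS to -0.13 (0.382), and it turned SLC25A15 from -0.0079 to 0.088. ASS1 and ARG2 were called under the 3 scalings.

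**Figure D4:**
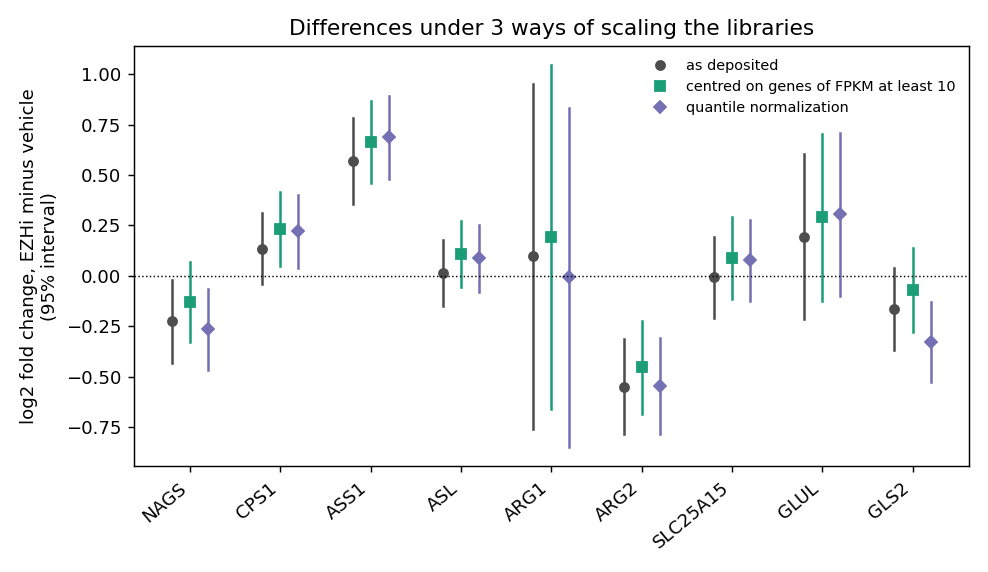
Log2 fold change of EZHi against vehicle (vertical axis) with its 95% interval for the 9 genes tested, with libraries scaled as deposited, centred on genes that reached an estimated FPKM of 10, or quantile normalized. The intervals of ASS1 lie above 0 and those of ARG2 below 0 in the 3 cases.

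Other genes of the pathway were then examined in 7 lists, written by role, that together held 137 genes. Of the 123 that could be tested, 15 were called higher and 13 lower, beside 8.85% and 4.27% of all genes tested. With the replicate block, 34 were called higher and 35 lower, beside 14.9% and 15.1% of all genes, which is also the background for the blocked counts of single lists. The median log2 fold change of the 123 was -0.045 as deposited and 0.050 with centring. Over all genes tested it was -0.0077 as deposited, 0.088 with centring and -0.059 with quantile normalization. These values are also the background for the medians of single lists. The size of a rise from a low level depends on the pseudocount added to the estimated FPKM, none being added here, and the values at pseudocounts of 0.5 and 1 are given for such genes of these lists.

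Among 15 partners of the cycle tested (carriers, carbonic anhydrases, sirtuins, urea channels and enzymes that return fumarate to aspartate), 2 were called higher and 1 lower, with a median of -0.11. AQP9, a channel for glycerol and urea of the hepatocyte membrane, rose from 1.63 ± 0.08 to 3.73 ± 0.82 (SD, n = 4 each), a difference of 2.10 ± 0.33 (standard error; limma adjusted p 0.00247), which became 0.76 and 0.48 with these pseudocounts. It stayed low in absolute terms, with a mean estimated FPKM of 0.352. AQP7, another channel of this class, rose by 0.77 (limma adjusted p 0.00539), or by 0.64 and 0.55 with pseudocounts. FH, which uses the fumarate released by ASL, fell from 9.90 ± 0.04 to 9.55 ± 0.12 (SD, n = 4 each), a log2 fold change of -0.36 (limma adjusted p 0.0105).

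Of 20 enzymes that use glutamine or glutamate, 1 was called higher and 3 lower, and the replicate block gave 2 and 9. The median of this list was -0.18, and -0.086 with centring. GAD1, which decarboxylates glutamate, rose by 1.05 (limma adjusted p 0.00868) from a low level (0.68 and 0.51 with pseudocounts). GCLC, the catalytic subunit of the first enzyme of glutathione synthesis, changed by -0.42 (0.0227), GPT2, the mitochondrial alanine aminotransferase, by -0.34 (0.0103) and CTPS2, a CTP synthase, by -0.28 (0.0186). The calls of GCLC and CTPS2 were lost with centring (limma adjusted p 0.0626 and 0.092) and with quantile normalization (0.0832 and 0.0669). They were also lost in 4 and 3 of the 8 leave-one-out fits, and that of GPT2 was lost with quantile normalization (0.0602).

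Carriers of glutamine, glutamate and cationic amino acids changed in both directions. Of 21 tested, 3 were called higher and 5 lower, with a median of -0.070 that turned to 0.042 with quantile normalization and 0.025 with centring. SLC38A2, an abundant carrier of glutamine and other neutral amino acids, fell from 14.13 ± 0.32 to 13.43 ± 0.16 (SD, n = 4 each), a log2 fold change of -0.70 (limma adjusted p 0.0131) that was negative in 4 of 4 pairs. SLC7A6, which exchanges cationic amino acids for glutamine, fell from 8.97 ± 0.22 to 8.07 ± 0.31 (SD, n = 4 each), by -0.90 (limma adjusted p 0.00483), and SLC7A1, the main arginine importer of many cells, by -0.34 (0.00201). SLC7A8, a light chain of the neutral amino acid exchangers, rose from 2.93 ± 0.18 to 4.65 ± 0.38 (SD, n = 4 each), by 1.72 (limma adjusted p 0.000232; 0.90 and 0.62 with pseudocounts). SLC6A14, which takes up neutral and cationic amino acids, rose by 1.54 (limma adjusted p 0.000206), or by 1.43 and 1.33 with pseudocounts. SLC25A18, a mitochondrial glutamate carrier, rose by 0.51 (0.00452), or by 0.25 and 0.17 with pseudocounts. The SLC25A18 call was lost with quantile normalization (0.0661). SLC7A5 and its partner SLC3A2, named after their values were seen, changed by -0.32 and -0.29 (limma adjusted p 0.0443 and 0.0151), and both calls were lost with centring (0.14 and 0.0627) and in 6 and 2 of the 8 leave-one-out fits. SLC1A5, a glutamine carrier, had a log2 fold change of -0.25 and was called with the replicate block (limma adjusted p 0.232 without it and 0.012 with it), but not with block and centring together (0.0712).

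**Figure D5:**
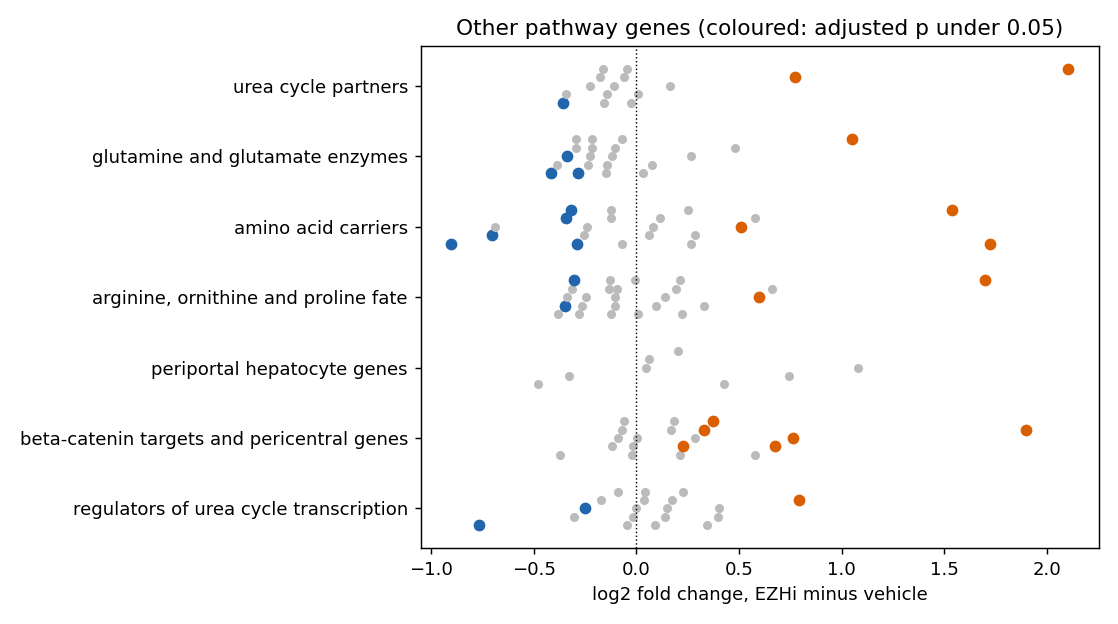
Log2 fold change of EZHi against vehicle (horizontal axis) for the other pathway genes tested, by list; each point is a gene, orange for called higher, blue for called lower and grey for not called, and a gene held by several lists is shown in each. On this scale, with no pseudocount, the rightmost points are AQP9 (2.10) and DKK1 (1.90), and the leftmost is SLC7A6 (-0.90).

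Among 25 genes that act on arginine, ornithine, proline and polyamines, 2 were called higher and 2 lower, with a median of -0.11 that turned to 0.015 with quantile normalization. NOS2, which uses arginine to make nitric oxide and citrulline, rose from 2.46 ± 0.38 to 4.15 ± 0.50 (SD, n = 4 each), a log2 fold change of 1.70 (limma adjusted p 0.00196) with pairs from 1.53 to 1.83 (0.75 and 0.49 with pseudocounts). AZIN2, an inhibitor of the antizymes that limit ornithine decarboxylase, rose by 0.60 (0.0278) and lost its call with quantile normalization (0.116) and in 4 of the 8 leave-one-out fits. With pseudocounts its rise was 0.47 and 0.38. ALDH18A1, which starts the synthesis of proline and ornithine from glutamate, changed by -0.30 (limma adjusted p 0.00683), and AMD1, which supplies polyamine synthesis, by -0.35 (0.0247). The AMD1 call was lost with centring (0.0902), with quantile normalization (0.111) and in 3 of the 8 leave-one-out fits. OAT, which interconverts ornithine and glutamate and is a pericentral enzyme, went from 11.86 ± 0.07 to 12.07 ± 0.10 (SD, n = 4 each). Its log2 fold change of 0.22 was called with the replicate block (limma adjusted p 0.0763 without it and 0.00663 with it) and with centring (0.0147).

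Genes of the 2 poles of the liver lobule were compared, since urea cycle enzymes and GLUL mark these poles. Of 8 periportal genes tested, 0 were called by limma, and 4 higher and 2 lower were called with the replicate block. The log2 fold changes of these 8 ranged from -0.48 to 1.08, with a median of 0.13. PCK1, a gluconeogenic enzyme named after its values were seen, varied from 6.77 to 9.06 among vehicle and from 8.26 to 10.1 among EZHi libraries, and was higher by 0.66 to 1.49 within pairs (limma adjusted p 0.201 without the block and 0.000166 with it). Of 19 β-catenin targets and pericentral genes tested, 6 were called higher and 0 lower, with a median of 0.18 (9 and 1 with the replicate block). DKK1, a secreted inhibitor of WNT signaling, rose from 11.40 ± 0.58 to 13.29 ± 0.36 (SD, n = 4 each), a log2 fold change of 1.90 (limma adjusted p 0.00146). LEF1, a transcription factor of the pathway, rose by 0.76 (0.00142) from a low level (0.20 and 0.11 with pseudocounts), CYP2E1 by 0.67 (0.0353; 0.36 and 0.25 with pseudocounts), and the feedback inhibitors NKD1 and NOTUM by 0.37 and 0.33 (0.00275 and 0.0498). SP5 rose by 0.23 (0.0472). The calls of NOTUM, SP5 and CYP2E1 did not hold in 6, 7 and 5 of the 8 fits that left out 1 library, where their adjusted p reached 0.134, 0.113 and 0.102, and CYP2E1 also lost its call with quantile normalization (0.115). NOTUM also lost its call with no filter, the filter at 1, either pseudocount or a constant prior variance (limma adjusted p 0.0514 to 0.0668). It kept the call with the replicate block, centring and quantile normalization. AXIN2 and LGR5, common readouts of β-catenin activity, had log2 fold changes of 0.18 and -0.02 (limma adjusted p 0.208 and 0.947). AXIN2 was called only when the block was combined with centring (0.28, limma adjusted p 0.0170) or with quantile normalization (0.30, 0.0142).

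Regulators of urea cycle transcription were examined last. Of 19 tested, 1 was called higher and 2 lower, with a median of 0.043. GCGR, the receptor for glucagon, which induces the cycle in liver, rose from 2.43 ± 0.05 to 3.23 ± 0.27 (SD, n = 4 each), by 0.79 (limma adjusted p 0.00277) at a mean estimated FPKM of 0.291 (0.29 and 0.18 with pseudocounts). CEBPD fell from 9.85 ± 0.37 to 9.08 ± 0.23 (SD, n = 4 each), by -0.76 (0.0206), a call that was absent in 3 of the 8 leave-one-out fits. FOXA1, a pioneer factor of hepatocytes, changed by -0.25 (0.0125) and lost its call with centring (0.0969). HNF4A, CEBPA and NR3C1 (the glucocorticoid receptor), which act on several genes of the cycle, had log2 fold changes of 0.04, 0.09 and -0.09 (limma adjusted p 0.85, 0.754 and 0.44).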

How the data were processed

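mRNA libraries were sequenced in paired mode. According to the study's methods, the authors aligned reads to hg38 with HISAT2 (2.2.1 in the submitters' processing notes), counted them over exons with HTSeq (0.9.1, union mode, no strand, minimum alignment quality 10), removed genes with fewer than 10 reads over all samples, and normalized with the regularized log of DESeq2 (1.40.2 in the submitters' notes), divided by an average Ensembl transcript length. The values as deposited by the authors are log2 values (-6.81 to 19.01), although the table is named as FPKM. The regularized log shrinks differences of genes with few reads, between replicates as well as between groups. Fold changes of low genes are thus understated, and a pseudocount lowers them further. The SDs, intervals and p-values of such genes rest on shrunken spreads and do not give the counting noise.

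Of 25604 rows, 1 repeated an identifier and was dropped. An estimated FPKM was obtained by dividing the linear value by 25.6, the mean normalized library size (range 24.4 to 27.3, scaled as in FPKM), itself the sum of linear values times GENCODE 44 transcript length. These sums reflect the common scale, so read depth is unknown and no counting interval is given. Tests used limma 3.58.1 in R 4.3.3 (lmFit, eBayes with trend, two-sided) with group alone in the model and p-values adjusted by Benjamini-Hochberg over 20153 genes, and the other steps Python 3.11.15. The fit was tried on simulated data with independent libraries and normal noise, which could not test the pairing or the shrinkage of the real values. No count model was applied. Deviations from group means correlated at 0.216 to 0.634 between libraries of equal number (4 pairs) and at -0.582 to 0.199 between other libraries (12 pairs), so the numbers, taken from the sample titles, pair the samples.

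Alternatives were the replicate block, no filter or a filter at an estimated FPKM of 1, pseudocounts of 0.5 and 1, quantile normalization, centring on genes that reached an estimated FPKM of 10, a constant prior variance, and leaving out each of the 8 libraries. The block combined with either scaling was added after seeing the data. The genes and lists were chosen with earlier results of these data known. Every one of the 10 genes is named. From the other lists all called genes are named where there were up to 6, otherwise the 3 largest in each direction, besides fixed reference genes, of which 1 is not reported here. Exonic overlaps, pseudogenes and coordinates came from GENCODE 44 (GRCh38).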

Additional observations from a re-analysis of the deposited data

Results flagged for a closer look

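Dixon's criterion at 95% was applied to the 4 libraries of each group, gene by gene. Of 104 such groups, 2 had a library singled out (about 5.2 would be by chance), and 0 of those that belong to the urea cycle and glutamine genes listed by name. GCLC was at 10.6 in vehicle replicate 4, against 10.98 to 11.03 in the other vehicle libraries (0.872 of the range). SLC25A18 was at 3.27 in the same library, with the others at 3.45 to 3.48 (0.865 of the range). When it was left out, the log2 fold changes of both genes were -0.51 and 0.46, both called by limma. The GCLC call was lost without vehicle replicate 1, 2 or 3 or EZHi replicate 4 (limma adjusted p 0.0685, 0.0583, 0.0504 and 0.0699).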

How the results depend on the processing

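Of the 9 genes tested, ASS1 and ARG2 kept direction and call in all alternatives run. The replicate block gave 3 higher and 2 lower of these genes, quantile normalization 2 lower. The cause of these differences was not tested, other than that the block removes differences shared by a pair. Over all genes, 1784 higher and 860 lower became 3003 and 3048 with the replicate block, 780 higher at a minimum FPKM of 1, 319 lower with centring (which raised the share of higher genes from 67.5% to 88.9%), and 389 to 860 lower when 1 library was left out, with 389, 454, 495 and 554 without EZHi replicate 4, vehicle replicate 4, vehicle replicate 1 and EZHi replicate 1. Of the other pathway genes, 15 higher and 13 lower became 34 and 35 with the replicate block, 6 higher at a minimum FPKM of 1, 8 lower with quantile normalization, 7 lower with centring, and 7 to 14 lower when 1 library was left out (7 without EZHi replicate 4). Genes that were not called and changed sign were ARG1 (-0.0077 with quantile normalization, with and without the block), SLC25A15 (0.078 with quantile normalization and 0.088 with centring), CAD (0.013 with quantile normalization), NR3C1 (0.0068 with centring), LGR5 (0.072 and 0.075), EZH1 (0.030 with centring) and EZH2 (0.0045 and 0.040), each also in the blocked fits of the same scaling. Leaving out 1 library moved ASL between -0.021 and 0.063, ARG1 between -0.29 and 0.33, SLC25A15 between -0.064 and 0.044, SLC25A13 between -0.038 and 0.063, HNF4A between -0.026 and 0.081, CEBPA between -0.0089 and 0.21, and LGR5 between -0.15 and 0.063. OTC and GLS2 lie too close to the floor for small changes to be seen.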

Other observations

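The genes around ASS1 and ARG2 were also inspected, beside a background of 8.85% of all genes called higher and 4.27% called lower. Within 500 kb of ASS1, 11 genes were tested and 1 was called, HMCN2, which rose from 1.17 to 3.18 (log2 fold change 2.02, limma adjusted p 1.00e-05), and the median over the 11 was 0.050. The vehicle level of HMCN2 was under the estimated FPKM of 0.1 required for a test, so it was tested only through its EZHi libraries. Within the same distance of ARG2, 15 genes were tested and 1 was called, TMEM229B, which rose by 0.89 (limma adjusted p 0.000743), while ARG2 fell. Around CPS1, LANCL1-AS1 was the only one of 7 called (0.42, limma adjusted p 0.038), and around GLUL it was NPL, 1 of 3 (0.91, limma adjusted p 0.00206). Around NAGS, 6 of 31 neighbours were called higher and 1 lower. The higher ones included the hormone genes PPY and PYY (1.23 and 0.91, limma adjusted p 8.35e-05 and 0.00451), the anion exchanger gene SLC4A1 (1.45, 6.64e-05) and the integrin gene ITGA2B (0.87, 0.00664), and the lower one was DHX8 (-0.21, 0.0437). NAGS itself was lower in all 4 pairs. TMEM229B, NPL and SLC4A1 were also low in vehicle cells (2.42, 1.45 and 1.97), and no values with pseudocounts are given for these genes or HMCN2.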
